A study of Citrus trifoliata and Citrus junos with 20 samples.

Results

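The miRNAs described here were csi-miR162-3p and csi-miR162-5p, the 2 arms of 1 hairpin, csi-miR1515, and csi-miRN17, a predicted miRNA that the deposited list assigns to the MIR1515 family. They were taken by name from the lists of 49 known and 51 predicted miRNAs, so they were 4 of 100 miRNAs, and all 4 were among the 96 with enough reads to be tested. The libraries held small RNA of seedling roots of alkaline-tolerant Ziyang xiangcheng (Citrus junos, here Cj) or alkaline-sensitive trifoliate orange (Poncirus trifoliata, here Pt), both used as citrus rootstocks. Both grew in nutrient solution for 8 weeks at a normal pH of 6.5 or at an alkaline pH of 8.0 or 9.5, and no other treatment or allele is named in the labels. Each of the 6 groups held 3 libraries, each from a pool of 3 seedlings, so the p-values measure the spread between pools, which nothing in these sources places in separate culture vessels. Library depth ranged from 77255 listed miRNA reads in Pt pH 8.0 replicate 1 to 771522, and this shallow library stood apart from the other 17, of which the lowest held 254842 reads.

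Dicer-like proteins (DCL) cut double-stranded RNA into small RNAs. DCL1 releases most plant miRNAs from their hairpins, and DCL2 makes 22-nt siRNAs, including those from viral RNA. In Arabidopsis miR162 guides cleavage of the DCL1 transcript, so the enzyme that makes miRNAs is itself under the control of a miRNA. In soybean miR1515 guides cleavage of a DCL2 transcript. A plant hairpin yields a duplex of 2 strands, of which 1 is usually loaded into an Argonaute protein while the other is degraded. A 22-nt miRNA can also start the production of phased siRNAs, which are cut in steps of 21 nt from the site of cleavage.

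The mature sequences are shown because they set which transcripts each miRNA can pair with. The capitals mark the seed, bases 2 to 8 from the 5′ end.
csi-miR162-3p: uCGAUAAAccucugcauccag
csi-miR162-5p: uGGAGGCAgcgguucaucgauc
csi-miR1515: uCAUUUUUgcgugcaaugaucc
csi-miRN17: cAGCUUGUguacaaugauagu
The seeds of these miRNAs all differ, and none of them is shared with any other of the 100 listed miRNAs. csi-miR162-3p and csi-miRN17 are 21 nt long, and csi-miR162-5p and csi-miR1515 are 22 nt long. The 2 arms of csi-miR162 come from the same deposited hairpin of 201 bases, with 49 bases between them. In the fold predicted with RNAfold, 17 bases of one arm pair with the other, all in Watson-Crick pairs.

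The target sites are shown because they tie csi-miR162-3p and csi-miR1515 to particular transcripts. Their sequences come from the duplexes listed with the degradome of the study, whose libraries were not analysed here, and the capitals mark bases in Watson-Crick pairs with the miRNA.
csi-miR1515 site in Cs6g03500 and Cs6g03520: GGATCATTGCAtGCAAAATGt
csi-miR162-3p site in orange1.1t00584: CTGGATGCAGAGGTgTTATCGA
Both Cs6g03500 and Cs6g03520 are annotated by the study as DCL2. The csi-miR1515 site has 19 Watson-Crick pairs and 1 G-U pair over the 22 bases of the miRNA, and 1 mismatched base opposite its 5′ end. It also has a gap of 1 base in the site, which falls opposite the seed. The duplexes also list a weaker csi-miR1515 site in Cs3g10410, annotated by the study as a pectin acetylesterase, with 16 Watson-Crick pairs, 3 G-U pairs, 2 mismatched bases and a gap of 1 base. The csi-miR162-3p site pairs with all 21 bases of the miRNA and carries 1 extra base, printed in lower case. The extra base falls within the stretch that pairs with the seed. orange1.1t00584 is given here by its identifier only.

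csi-miRN17 was compared with the other 99 listed miRNAs, because only the family assigned to it in the deposited list ties it to Dicer-like transcripts. csi-miR1515 was the closest of them, with 12 identical bases at the best ungapped placement, against 11 for csi-miRN02, csi-miRN14 and csi-miRN15. The 2 sequences share a run of 7 bases (caaugau) that starts at base 12 of csi-miRN17 and at base 14 of csi-miR1515, outside both seeds, and 6 of the 99 miRNAs share a run of that length with csi-miRN17. No target site of csi-miRN17 was analysed here, and whether it acts on a Dicer-like transcript was not tested.

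The hairpin of csi-miRN17 lies on the minus strand of chromosome 5, from 24667328 to 24667577 of the Citrus sinensis genome used by the study, whose release the sources used here do not give. It is 250 bases long, has a deposited miRDeep2 score of 1.1, and carries csi-miRN17 at positions 208 to 228. The stretch that pairs best with a listed miRNA is shown because it overlaps the deposited star strand, the predicted partner of csi-miRN17. The capitals in the site mark its Watson-Crick pairs with csi-miR482b, a member of the family known to act on NBS-LRR resistance transcripts, and those in csi-miR482b its seed.
csi-miR482b: uCUUGCCCaccccucccauucc
site in the csi-miRN17 hairpin: GGAAUGGGcGGGuUGGGCAAGA
csi-miRN17 star: uauuggaaugggcggguuggg
csi-miR482b formed 20 Watson-Crick pairs over its 22 bases, with bases 10 and 14 unpaired, and no other of the 100 miRNAs reached that number. csi-miR482a-3p and csi-miRN48, of the same family, came next with 17 pairs at the same place. The site spans positions 175 to 196 and covers 17 of the 21 bases of the star, at positions 171 to 191. csi-miRN17 starts 21 bases downstream of the point opposite bases 10 and 11 of csi-miR482b, where a miRNA-guided cut would fall. Base 10, beside that point, is unpaired here, and whether a cut occurs there was not tested. These positions describe the deposited sequence, and whether csi-miRN17 is made from a hairpin or in another way was not tested.

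**Figure D1:**
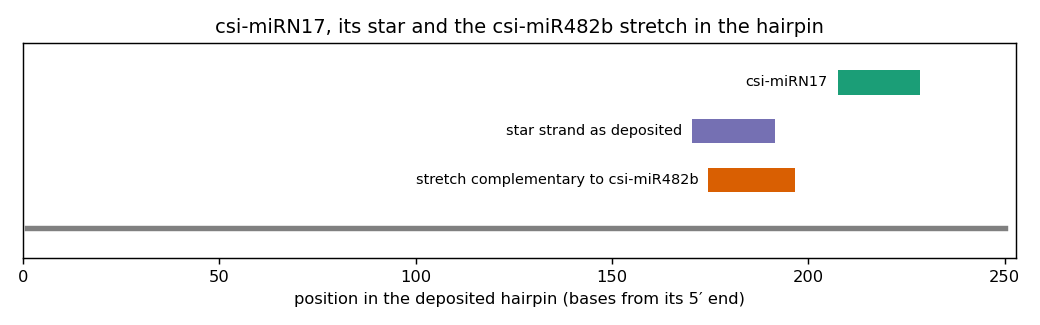
Map of the deposited csi-miRN17 hairpin (horizontal axis, bases from its 5′ end, 250 in all), with bars for csi-miRN17, its deposited star and the stretch complementary to csi-miR482b. The csi-miR482b stretch (175 to 196) overlaps the star (171 to 191) by 17 bases and ends before csi-miRN17 begins (208).

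Levels are given as CPM, reads of the miRNA scaled to a common total of listed miRNA reads per library after TMM scaling, which adjusts for the composition of the library. In bulk roots, fewer cells of a type and less RNA per cell cannot be told apart. All 4 miRNAs had reads in all 18 libraries. csi-miR162-3p was by far the most abundant, with 3025 ± 447 CPM over all libraries (SD, n = 18), rank 28 of the 100 by mean level. csi-miR162-5p followed with 171 ± 51.7 CPM and rank 62, csi-miRN17 with 115 ± 30.8 CPM and rank 68, and csi-miR1515 with 58.8 ± 19.8 CPM and rank 84. The mean coefficient of variation within groups was 9.2% for csi-miR162-3p and 28.4% for csi-miR1515, which rested on 4 to 40 reads per library against 227 to 2067 for csi-miR162-3p.

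**Figure D2:**
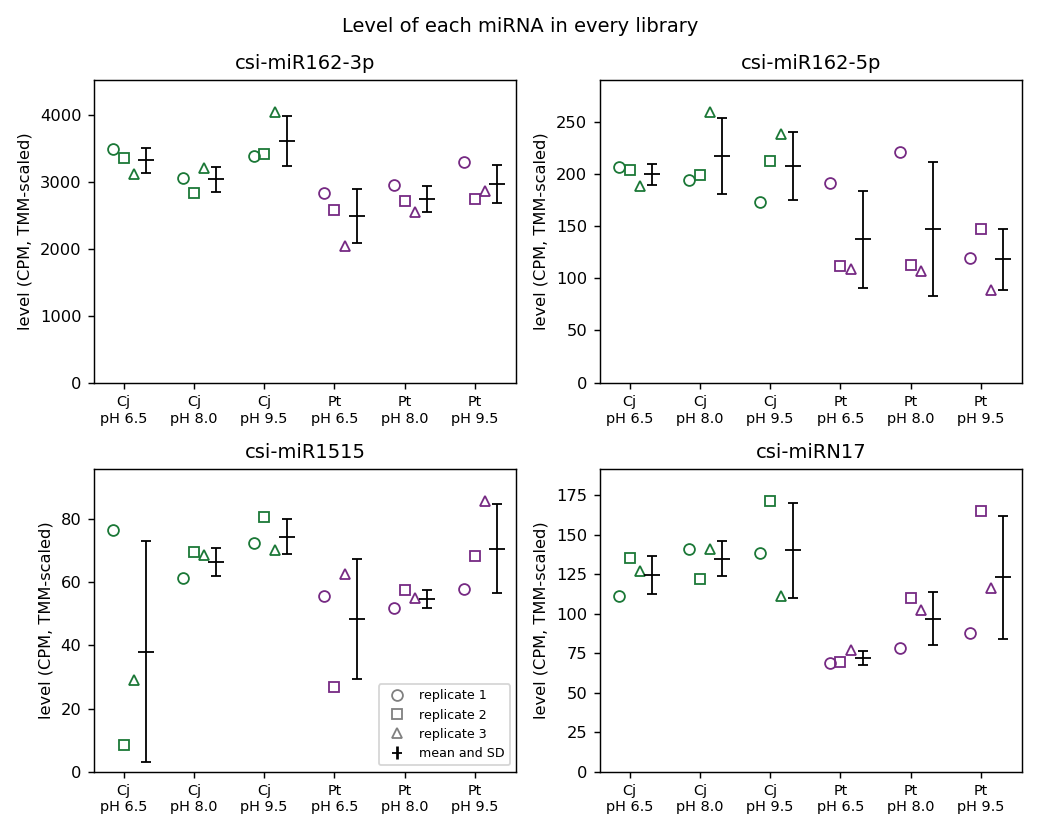
Level of each miRNA in CPM (vertical axis, linear, from 0) in the 3 libraries of each group (symbols by replicate number, green for Cj and purple for Pt), with the mean and SD beside them. csi-miR162-3p and csi-miR162-5p lie mostly lower in Pt, csi-miRN17 is lowest in Pt at pH 6.5 (68.7 to 77.2 CPM), and csi-miR1515 is most scattered in Cj at pH 6.5 (8.33 to 76.7 CPM).

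csi-miR162-3p, the arm that acts on DCL1 in Arabidopsis, was lower in Pt than in Cj roots on average over the pH values. It was not called between any 2 pH values within a rootstock. In Cj its libraries held 3489, 3347 and 3117 CPM at pH 6.5, 3059, 2838 and 3211 CPM at pH 8.0, and 3386, 3406 and 4034 CPM at pH 9.5. In Pt they held 2835, 2574 and 2045 CPM at pH 6.5, 2948, 2714 and 2553 CPM at pH 8.0, and 3290.1, 2747 and 2855 CPM at pH 9.5. All 3 Pt libraries lay below all 3 Cj libraries at pH 6.5 and at pH 9.5, and the groups overlapped at pH 8.0. Averaged over the 3 pH values the log2 fold change of Pt against Cj was −0.28 ± 0.10 (SE, edgeR adjusted p = 0.00897), a level 1.22 times lower. At a single pH the difference was called only at pH 6.5, with −0.42 ± 0.17 (adjusted p = 0.0301), and it was −0.15 ± 0.17 at pH 8.0 and −0.28 ± 0.17 at pH 9.5. The call at pH 6.5 was lost without Cj replicate 1 (−0.38, adjusted p = 0.0969), Cj replicate 2 (−0.41, 0.0695) or Pt replicate 3 (−0.30, 0.148), and with no low-count filter (−0.38, 0.0614). The deposited TPM imply a read total per library. With library sizes from these TPM totals and no TMM, csi-miR162-3p was called lower in Pt at each pH. It was at −0.62 (adjusted p = 0.000584) at pH 6.5, −0.63 (0.000643) at pH 8.0 and −0.69 (0.00022) at pH 9.5. Among pH comparisons within a rootstock its largest log2 fold change was 0.26 ± 0.17 in Pt at pH 9.5 against pH 6.5 (95% interval −0.09 to 0.60). From the highest to the lowest mean the groups ran Cj pH 9.5, Cj pH 6.5, Cj pH 8.0, Pt pH 9.5, Pt pH 8.0 and Pt pH 6.5, and the libraries of each group overlapped with those of the next.

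csi-miR162-5p, the opposite arm of the same hairpin, was also lower in Pt on average over the pH values and was not called between pH values. In Cj its libraries held 207, 204 and 188 CPM at pH 6.5, 194, 199 and 259 CPM at pH 8.0, and 173, 212 and 238 CPM at pH 9.5. In Pt they held 191, 112 and 109 CPM at pH 6.5, 221, 113 and 107 CPM at pH 8.0, and 119, 147 and 88.7 CPM at pH 9.5. In Pt 1 library at pH 6.5 and 1 at pH 8.0 reached the Cj range, the latter being the shallow one with 17 reads, and at pH 9.5 the 3 Pt libraries lay below the 3 Cj libraries. The mean log2 fold change over the 3 pH values was −0.70 ± 0.16 (adjusted p = 0.000373), a level 1.62 times lower in Pt. It was −0.76 ± 0.30 (adjusted p = 0.0285) at pH 8.0, −0.79 ± 0.28 (adjusted p = 0.0157) at pH 9.5 and −0.55 ± 0.28 (adjusted p = 0.0835, not called) at pH 6.5. Without the shallow library the estimate at pH 8.0 was −1.04, and without Pt pH 6.5 replicate 1 the difference at pH 6.5 was called (−0.79, adjusted p = 0.0239), as it was with library sizes from the TPM totals (−0.77, adjusted p = 0.0108). The call at pH 8.0 was lost without Cj replicate 3 (−0.66, adjusted p = 0.0797), Pt replicate 2 (−0.69, 0.107) or Pt replicate 3 (−0.66, 0.128). The call at pH 9.5 was lost without Cj replicate 2 (−0.69, adjusted p = 0.0618), Cj replicate 3 (−0.66, 0.0717), Pt replicate 1 (−0.73, 0.0536) or Pt replicate 3 (−0.62, 0.0878). Within a rootstock the estimates between pH values ran from −0.18 ± 0.28 to 0.13 ± 0.27. The 3 Cj means (199 to 217 CPM) stood above the 3 Pt means (118 to 147 CPM), and every group overlapped with the next in that order.

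The ratio of the 2 arms needs no scaling between libraries, since both are read in the same library. In Cj there were 16.9, 16.4 and 16.6 reads of csi-miR162-3p for each read of csi-miR162-5p at pH 6.5, 15.8, 14.3 and 12.4 at pH 8.0, and 19.6, 16.0 and 16.9 at pH 9.5. In Pt there were 14.8, 22.9 and 18.7 at pH 6.5, 13.4, 23.9 and 23.8 at pH 8.0, and 27.6, 18.6 and 32.2 at pH 9.5. The geometric mean was 16.0 over the 9 Cj libraries (12.4 to 19.6) and 21 over the 9 Pt libraries (13.4 to 32.2), so the rootstocks overlapped. The csi-miR162-5p share of the reads of both arms was 5.92% ± 0.731 in Cj and 4.69% ± 1.3 in Pt (SD, n = 9). For single libraries it ran from 3.01% (95% Wilson interval 2.11 to 4.3%, 962 reads) in Pt pH 9.5 replicate 3 to 7.48% (6.41 to 8.7%, 2020 reads) in Cj pH 8.0 replicate 3. The shallow library had 6.97% (4.4 to 10.9%) on 244 reads. These intervals cover the counting of reads only, not the spread between pools. The reads carry no molecular tags, so repeat reads of 1 molecule could not be removed and the intervals may be too narrow.

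The mean log2 ratio was 0.39 higher in Pt than in Cj within pH, a ratio 1.31 times as high. The 2-sided exact permutation test over 8000 arrangements of the rootstocks within pH gave p = 0.0195. The adjusted p over the 10 comparisons of the ratio was 0.195, which does not pass the threshold of 0.05. The other comparisons in that set, of 3 against 3 libraries, could not give p under 0.1 and so could not pass. Without the shallow library the difference was 0.49, with an exact permutation p = 0.00475 and an adjusted p of 0.0475. Over the 18 runs with 1 library left out, the difference ran from 0.34 to 0.49. The adjusted p of the exact permutation test ran from 0.0475 to 0.367, so the call depended on the library left out. By pH the difference of Pt from Cj was 0.16 at pH 6.5, 0.48 at pH 8.0 and 0.55 at pH 9.5 (exact permutation p = 0.5, 0.3 and 0.2). Within Cj the log2 ratio was 0.24 lower at pH 8.0 than at pH 6.5 and 0.31 lower than at pH 9.5, with no overlap of libraries in either comparison and an exact permutation p = 0.1 for each, the smallest that 3 against 3 libraries can give (adjusted p = 0.333). Within Pt it was 0.46 higher at pH 9.5 than at pH 6.5 (exact permutation p = 0.3), with overlapping libraries.

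**Figure D3:**
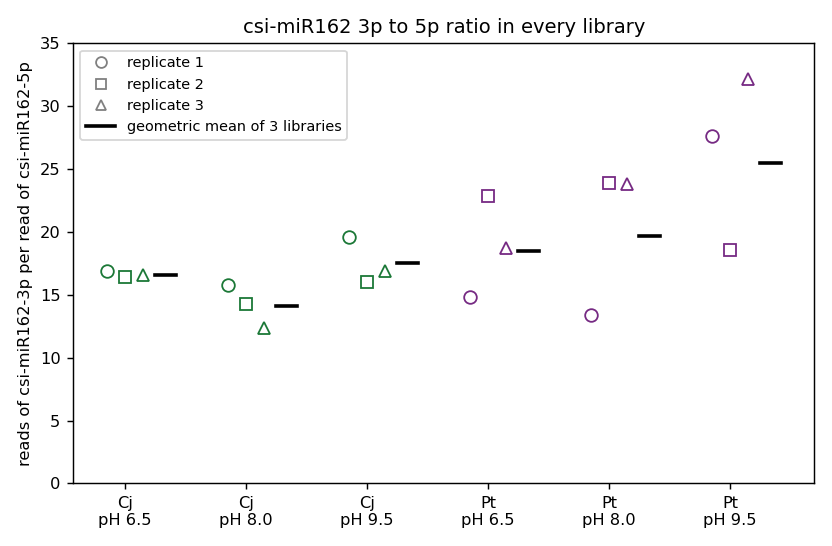
Reads of csi-miR162-3p per read of csi-miR162-5p (vertical axis, linear, from 0) in every library by group (symbols by replicate number), with the geometric mean of the 3 libraries as a bar. The Cj libraries lie between 12.4 and 19.6, and the Pt libraries spread from 13.4 to 32.2.

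csi-miR1515, the 22-nt miRNA with sites in the DCL2 transcripts Cs6g03500 and Cs6g03520, averaged 59.7 ± 24.4 CPM in Cj and 58.0 ± 15.5 CPM in Pt (SD, n = 9) and was not called in any comparison. In Cj its libraries held 76.7, 8.33 and 29 CPM at pH 6.5, on 33, 4 and 13 reads. They held 61.5, 69.5 and 68.7 CPM at pH 8.0 and 72.4, 80.8 and 70.3 CPM at pH 9.5. In Pt they held 55.8, 26.9 and 62.7 CPM at pH 6.5, 51.9, 57.6 and 55.1 CPM at pH 8.0, and 57.8, 68.3 and 85.7 CPM at pH 9.5. At pH 6.5, 2 Cj libraries and 1 Pt library lay below all those of their rootstock at the higher pH values, and the other 1 in Cj and 2 in Pt lay inside that range. In Cj the log2 fold change against pH 6.5 was 0.84 ± 0.44 at pH 8.0 (adjusted p = 0.142) and 0.99 ± 0.44 at pH 9.5 (unadjusted p = 0.0316, adjusted p = 0.0778), and in Pt 0.21 ± 0.44 and 0.53 ± 0.41 (adjusted p = 0.81 and 0.363). These Cj values turned on Cj pH 6.5 replicate 1, the high library of its group, and on replicate 2, the low one with 4 reads. Without replicate 1 they were 1.85 (adjusted p = 0.00455) and 2.00 (adjusted p = 0.00142). csi-miR1515 was then also called higher in Pt than in Cj at pH 6.5 (1.37, adjusted p = 0.0134). Without Cj pH 6.5 replicate 2 the Cj values fell to 0.35 (adjusted p = 0.52) and 0.50 (adjusted p = 0.342). With the replicate number as a block, the value in Cj at pH 9.5 was 1.04 and was called (adjusted p = 0.0478).

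Between pH 8.0 and pH 9.5 the libraries of csi-miR1515 did not overlap in either rootstock, with the higher levels at pH 9.5. The gaps were narrow, 69.5 against 70.3 CPM in Cj (37 and 36 reads) and 57.6 against 57.8 CPM in Pt (33 and 31 reads). The log2 fold changes were small, 0.15 ± 0.40 in Cj and 0.32 ± 0.43 in Pt (adjusted p = 0.894 and 0.629). At pH 8.0 the Pt libraries lay below those of Cj, at −0.26 ± 0.43 (adjusted p = 0.603). The mean difference between rootstocks was 0.00 ± 0.22, with a 95% interval of −0.45 to 0.46. The order of means was Cj pH 9.5, Pt pH 9.5, Cj pH 8.0, Pt pH 8.0, Pt pH 6.5 and Cj pH 6.5, and only Cj pH 8.0 and Pt pH 8.0 did not overlap as neighbours.

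csi-miRN17 was the 1 miRNA of these 4 called between pH values, and it was lower in Pt than in Cj at pH 6.5. In Cj its libraries held 111, 135 and 127 CPM at pH 6.5, 141, 122 and 141 CPM at pH 8.0, and 138, 171 and 111 CPM at pH 9.5. In Pt they held 68.7, 69.6 and 77.2 CPM at pH 6.5, 77.9, 110.0 and 102 CPM at pH 8.0, and 87.6, 165 and 116 CPM at pH 9.5. The 3 Pt libraries at pH 6.5 were the lowest of all 18 and lay close together, while those at pH 9.5 spread into the Cj range. In Pt csi-miRN17 rose at pH 9.5 against pH 6.5 by a log2 fold change of 0.78 ± 0.27 (adjusted p = 0.0278), a level 1.71 times higher. The call was lost without Pt pH 6.5 replicate 1 (0.76, adjusted p = 0.0685), Pt pH 6.5 replicate 3 (0.83, 0.0502) or Pt pH 9.5 replicate 2 (0.48, 0.248), and with library sizes from the deposited TPM totals (0.58, 0.128). At pH 8.0 against pH 6.5 the Pt libraries did not overlap either, at 0.50 ± 0.28 (adjusted p = 0.356). The gap was narrow, 77.9 CPM in the shallow library on 6 reads against 77.2 CPM at pH 6.5. In Cj the values were 0.11 ± 0.26 and 0.16 ± 0.26, and the difference between the rootstocks in the response to pH 9.5, 0.62 ± 0.37, was not called (adjusted p = 0.229).

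Against Cj, csi-miRN17 in Pt stood at −0.79 ± 0.27 at pH 6.5 (adjusted p = 0.0115), −0.40 ± 0.27 at pH 8.0 (adjusted p = 0.223) and −0.18 ± 0.26 at pH 9.5 (adjusted p = 0.539). Without Pt pH 6.5 replicate 1 the first of these was no longer called (−0.71, adjusted p = 0.0514), and the second was called when library sizes came from the TPM totals (−0.88, adjusted p = 0.00991). Averaged over the 3 pH values it was −0.46 ± 0.15 (adjusted p = 0.00897), a level 1.37 times lower. The Cj groups overlapped with each other and with Pt pH 9.5. Pt pH 8.0 and Pt pH 6.5 followed as neighbours that did not overlap, at 77.9 and 77.2 CPM where they came closest.

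**Figure D4:**
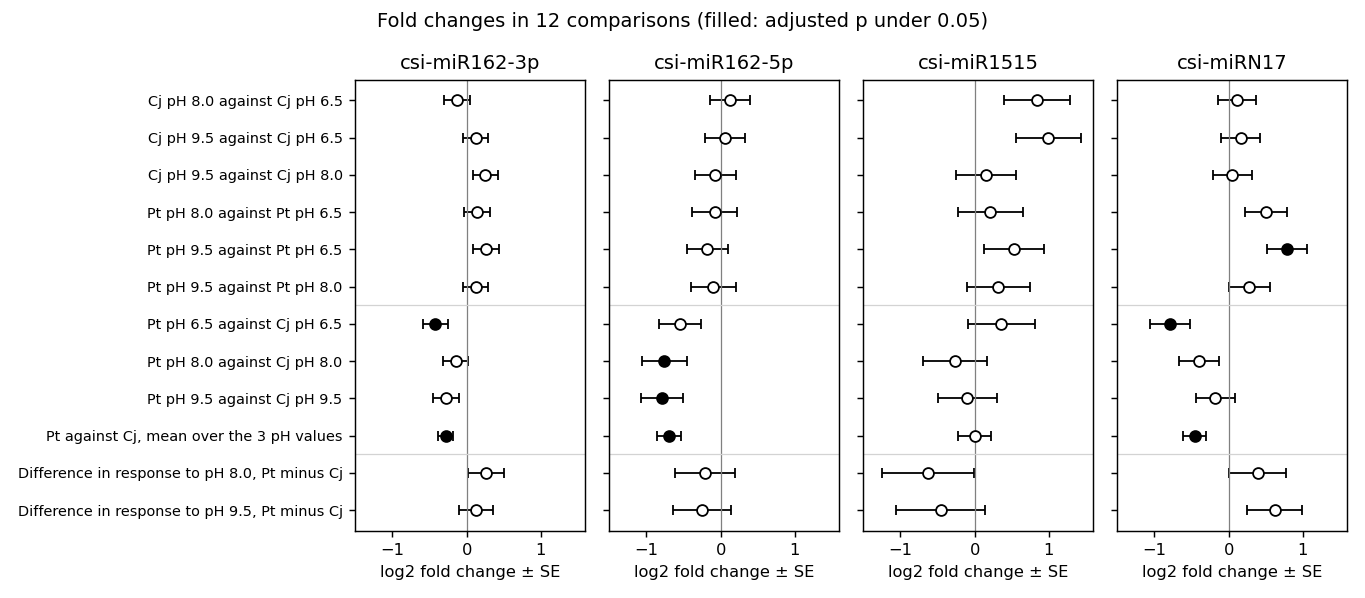
Log2 fold change with its SE (horizontal axis) of each miRNA in the 12 comparisons (rows: pH values within a rootstock, rootstocks at each pH and on average, and the difference between rootstocks in response). Filled points passed an adjusted p of 0.05: csi-miRN17 in Pt at pH 9.5 against pH 6.5 (0.78), and 7 lower values in Pt against Cj.

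The counts of these 4 miRNAs are set here beside the share of all tested miRNAs that met the same criterion. Of the 4, edgeR called 1 in Pt at pH 9.5 against pH 6.5, where it called 30.2% of the 96 tested miRNAs, 16.7% as higher, so that 1 of 4 was near that share. In the other comparisons of pH values edgeR and DESeq2 called 0 of the 4. edgeR called 36.5% of all tested miRNAs in Cj at pH 8.0 and 28.1% at pH 9.5 against pH 6.5, 9.38% between these 2, 9.38% in Pt at pH 8.0 against pH 6.5, and 17.7% in Pt between pH 9.5 and pH 8.0. At an unadjusted p under 0.05 there was 1 among the 4 in these comparisons, csi-miR1515 in Cj at pH 9.5. Libraries did not overlap for 2 of the 4 in Cj between pH 9.5 and pH 8.0, against 30.2% of all tested, for 1 in Pt at pH 8.0 against pH 6.5 (15.6%), for 1 at pH 9.5 against pH 6.5 (39.6%), for 1 at pH 9.5 against pH 8.0 (32.3%), and for 0 in Cj at pH 8.0 or pH 9.5 against pH 6.5 (53.1% and 52.1%).

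Between rootstocks, Pt was lower than Cj for 2 of the 4 at pH 6.5, where edgeR called 63.5% of all tested miRNAs and 34.4% as lower. It was lower for 1 at pH 8.0 (59.4% called, 27.1% lower), for 1 at pH 9.5 (59.4% called, 30.2% lower) and for 3 on average over the pH values (82.3% called, 39.6% lower). Of the 4, 3 called in either direction was near the share of all tested miRNAs on average over the pH values. Libraries of 2 of the 4 did not overlap at each pH, against 70.8% of all tested at pH 6.5 and 65.6% at pH 8.0 and at pH 9.5. Over all 9 libraries of each rootstock, 0 of the 4 and 29.2% of all tested miRNAs did not overlap. The difference between rootstocks in response was called for 0 of the 4 by edgeR and DESeq2, with 0 at an unadjusted p under 0.05, at pH 8.0 (10.4% of all tested called) and at pH 9.5 (18.8%). The median log2 fold change of Pt against Cj over the pH values was −0.37 for the 4 and 0.06 for all 96.

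The scaling bears on every comparison of rootstocks. The listed miRNAs held 65.5 to 77.7% of the read totals behind the deposited TPM in Cj and 61.8 to 83.1% in Pt. The TMM factors were 0.993 to 1.33 in Cj and 0.74 to 0.997 in Pt. With library sizes from the TPM totals and no TMM, the median of all tested miRNAs in Pt against Cj shifted by −0.36 on average over the pH values. csi-miR162-3p was then at −0.65, csi-miR162-5p at −1.06, csi-miRN17 at −0.82 and csi-miR1515 at −0.36 (not called, adjusted p = 0.197), so that each moved by about as much as the median. The split of calls on average over the pH values was 41 higher and 38 lower with TMM and 28 and 47 with TPM totals. It was 31 and 26 against 21 and 39 at pH 8.0, 28 and 29 against 17 and 48 at pH 9.5, and 16 and 13 against 11 and 20 in Pt at pH 9.5 against pH 6.5. In Cj at pH 8.0 against pH 6.5 it was 11 and 24 with TMM and 19 and 19 with DESeq2 size factors. In the deposited TPM values, a view chosen after the data were seen, csi-miR162-3p lay at 2559 to 3211 in the 9 Cj libraries and 1567 to 2137 in the 9 Pt libraries, and csi-miR162-5p at 161 to 213 and 54.6 to 136, so that neither overlapped, as for 32.3% of all tested miRNAs.

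The other listed miRNAs of the small RNA machinery were csi-miR403, of a family that acts on AGO2 in Arabidopsis, and csi-miRN02, csi-miRN14 and csi-miRN15. The deposited list assigns the last 3, each 24 nt long, to MIR168, a family that acts on AGO1. No target site of these miRNAs was analysed here, and whether they act on AGO transcripts was not tested. csi-miRN14 and csi-miRN15 have the same sequence. None of these 4 was called between pH values, where edgeR called 9.38 to 36.5% of all tested miRNAs. None was called for the difference in response, where it called 10.4% at pH 8.0 and 18.8% at pH 9.5. On average over the pH values csi-miR403 was lower in Pt, at −0.30 ± 0.11 (adjusted p = 0.0126), and csi-miRN02 was higher, at 0.59 ± 0.21 (adjusted p = 0.0136). The other 2 were not called on that average, where 82.3% of all tested miRNAs were called. None of the 4 was called between rootstocks at any single pH, where edgeR called 59.4 to 63.5% of all tested.

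Across the 18 libraries, which share the 2 rootstocks and differ in depth, the 3 listed miRNAs with the most similar log2 level to csi-miR162-3p were csi-miR390 (Pearson r = 0.84), csi-miR403 (0.75) and csi-miRN08 (0.74). csi-miR162-5p was most like csi-miRN44 (0.83), csi-miR3952 (0.81) and csi-miRN42 (0.81), and the r between the 2 arms of csi-miR162 was 0.65. csi-miRN17 was most like csi-miRN28 (0.85), csi-miR399a (0.69), which had too few reads to be tested, and csi-miR482a-5p (0.69), while its r with csi-miR482b was −0.41. csi-miR1515 had no close match, with csi-miRN52 (0.56), csi-miRN05 (0.54) and csi-miRN50 (0.52) first, and its r with csi-miRN17, assigned to the same family, was 0.11.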

How the data were processed

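The 18 small RNA libraries were analysed, and the 2 degradome samples were not analysed here. The authors trimmed the reads, removed structural RNA and repeats with Bowtie, matched the rest to the Citrus sinensis genome and to miRBase, and predicted further miRNAs with miRDeep2. The counts deposited by the authors are raw reads per mature miRNA and library, a different depth in each. The TPM deposited by the authors scale these reads to the mapped reads of each library, with no length term. The score deposited by the authors per predicted hairpin (miRDeep2) was used in no test. Of the predicted list, 1 miRNA is not reported here.

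Counts were fitted with edgeR 4.0.16 in R 4.3.3 by its quasi-likelihood test, with TMM factors, filterByExpr (minimum count 10, minimum total 15), a mean for each of the 6 groups and 12 contrasts, and p-values adjusted by Benjamini-Hochberg over the 96 miRNAs tested (threshold 0.05). The study compared pairs of groups with DESeq 1.10.1, per the submitters' processing notes. The SE was derived from the log2 fold change and the F statistic. The code was tested on simulated data. The ratio of csi-miR162 was tested by exact permutation of the rootstock within pH and, for 2 groups, of 3 against 3 libraries, with p-values adjusted over all 10. Hairpins were folded with ViennaRNA 2.7.2. Similarity of levels was Pearson r of log2(CPM + 1) over 18 libraries.

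The miRNAs and the list of the small RNA machinery were chosen with earlier results of these data known. By rule, the 4 miRNAs were named in every comparison, the other 4 of the list where called, and for each of the 4 the 3 most similar in level. Alternatives were scaling by DESeq2 size factors, by the totals behind the TPM with no TMM, or without the 5 highest miRNAs, no low-count filter, DESeq2 1.42.0, a replicate block, and leaving out each library. The deposited TPM were compared directly after the data were seen.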

Additional observations from a re-analysis of the deposited data

How the results depend on the processing

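The count of the 4 miRNAs called moved as follows. With library sizes from the TPM totals it was 0 in place of 1 in Pt at pH 9.5 against pH 6.5, and in Pt against Cj 3 in place of 2 at pH 6.5, 3 in place of 1 at pH 8.0 and 2 in place of 1 at pH 9.5. Of the 96 tested, 31 in place of 29 were then called in Pt at pH 9.5 against pH 6.5. In Pt against Cj 63 in place of 61 were called at pH 6.5, 60 in place of 57 at pH 8.0 and 65 in place of 57 at pH 9.5. As lower, 39 in place of 33, 39 in place of 26 and 48 in place of 29 were called at these pH values. With no low-count filter the count of the 4 was 1 in place of 2 in Pt against Cj at pH 6.5. There 62 of 100 miRNAs were called in place of 61 of 96. With 1 library left out the count of the 4 ranged from 0 to 1 in Cj at pH 8.0 and at pH 9.5 against pH 6.5. It also ranged from 0 to 1 in Pt at pH 9.5 against pH 6.5 and in Pt against Cj at pH 8.0 and at pH 9.5. In Pt against Cj at pH 6.5 it ranged from 1 to 2. Of the 96 tested, these runs called 19 to 38, 24 to 27, 22 to 29, 51 to 56, 53 to 58 and 56 to 64, in that order. The 3 calls on average over the pH values stayed at 3 under each alternative run, with 74 to 81 of all tested miRNAs called. The difference in the csi-miR162 ratio ranged from 0.34 to 0.49 with 1 library left out and was 0.45 from summed reads, and the csi-miR162-5p share was 1.23 percentage points lower in Pt (−1.23, exact permutation p = 0.0222, unadjusted). The cause of these shifts was not tested.

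Replicate numbers were checked as a block. Deviations of same-numbered libraries from their group means correlated at −0.286 to 0.44, 13 of 45 pairs over 0.1. Of 18 libraries, 8 correlated best with their own number. The median r was 0.0276 for the same number and −0.00676 for different numbers. No clear pairing by number was seen, and this check cannot exclude a weak one. With the replicate block the count of the 4 was 1 in place of 0 in Cj at pH 9.5 against pH 6.5, csi-miR1515. Of the 96 tested, 40 in place of 27 were called there. No other call of the 4 changed with the block. Of all tested miRNAs, TPM totals called 22 in place of 9 in Pt at pH 8.0 against pH 6.5 and 17 in place of 10 for the difference in response to pH 8.0. csi-miR1515 had the fewest reads, with 4 in Pt pH 8.0 replicate 1, the shallow library, and 4 in Cj pH 6.5 replicate 2, which held 440396 listed reads.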
